A study of Mus musculus with 17 samples.

Results

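Regions of chromatin that were less accessible in naive B cells, opened after antigen activation and were still open in plasma cells were taken from an ATAC-seq table of mouse B cells. A region was a member if it lay outside the promoters that the table marks and off chromosomes X, Y and M, if its mean accessibility in germinal center B cells (GCB) and in bone marrow plasma cells (BMPC) of control mice was each at least 5 RPPM and at least 4 times that in naive B cells (nB), and if the GCB and BMPC means were within 2-fold of each other. RPPM are reads in a region, scaled so that the values of all regions of a library sum to 1000000. The rule chose 849 of the 50648 distal autosomal regions, or 1.68%, in a table of 66177 regions. The levels in control libraries chose these regions and are given as a description only. The rule asks for a rise and not for closed chromatin in nB, and 39 regions had a C nB mean of at least 5 RPPM. All tests use libraries from Dnmt3-deficient mice, which the rule did not use.

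ATAC-seq uses a transposase that inserts sequencing adapters into open chromatin, so that reads accumulate at accessible promoters and enhancers. When a naive B cell meets its antigen with T cell help, it can enter a germinal center, where cells divide, mutate their antibody genes and are selected, and some leave as plasma cells that settle in the bone marrow and secrete antibody. Distal regions that open on activation commonly hold binding sites for factors such as AP-1, IRF4, the octamer factors with their coactivator OBF-1, and E proteins.

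Mice of both genotypes carried floxed Dnmt3a and Dnmt3b, the genes of the de novo DNA methyltransferases, on the background B6;129S4-Dnmt3atm3.1Enl Dnmt3btm5.1Enl/Mmnc. All were Dnmt3a fl/fl and Dnmt3b fl/fl. Dnmt3-deficient mice (KO) also carried a Cre allele that acts in B-lineage cells, and Dnmt3-sufficient mice (C) did not, so that effects of the deletion and of the Cre allele itself cannot be told apart. The nB (B220+ Fas- GL7-) came from lymph nodes of naive male mice, with 3 C and 2 KO libraries. The GCB (B220+ Fas+ GL7+ and binding phycoerythrin, PE) came from lymph nodes 30 days after immunization with PE in complete Freund's adjuvant, with 2 C and 4 KO libraries, each from a pool of 2 mice. Of these, C GCB 2 and KO GCB 4 were male and the others female. The BMPC (CD138+) came from the bone marrow of female mice 30 days after the same immunization, with 3 C and 2 KO libraries. Their labels name no selection for PE binding. Mice were young adults, and each library was made from a small number of sorted cells. Sex, tissue and immunization therefore differ between nB and BMPC together with the cell type and cannot be told apart from it. Between nB and GCB, immunization and selection for PE binding differ in the same way, as does sex except in C GCB 2 and KO GCB 4.

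Reads in regions numbered 4104875 to 6079018 in nB, 907959 to 2280954 in GCB and 5357687 to 8232313 in BMPC libraries. The value of 3 reads ranged from 0.364 to 3.30 RPPM, the latter in KO GCB 1, and these floors cover counting error only. The sorted cells were checked at promoter regions. Tnfrsf17, a plasma cell survival receptor, averaged 19.995 RPPM in C BMPC and 16.5 in KO BMPC, against 0.2 to 3.6 elsewhere. Gcsam, a germinal center gene, averaged 46.7 and 48.3 RPPM in C and KO GCB and 3.22 to 17.5 elsewhere. Other markers did not follow their cell type at the promoter. Irf4 averaged 50.6 and 46.5 RPPM in C and KO BMPC and 59.4 and 62.0 in nB, and Prdm1, a plasma cell regulator, 98.0 and 103 in BMPC and 96.6 and 104 in nB. Bcl6, a germinal center regulator, averaged 20.01 and 15.99 RPPM in C and KO GCB and 53.8 and 56.7 in nB. Fcer2a, a marker of naive B cells, averaged 42.4 and 47.5 RPPM in C and KO nB, and at most 15.6 in GCB and BMPC. Sdc1, which encodes CD138, has no promoter region in the table, nor does Igj, so 5 of 7 fixed plasma cell markers could be read. Of other cells, 6 of 8 myeloid and 7 of 8 T cell markers had no promoter region. The summed level of the 2 myeloid markers left, Cebpe and Itgam, was 43.6 to 57.5 RPPM in BMPC, 14.1 to 29.9 in GCB and 19.7 to 27.0 in nB. Tcf7, the T cell marker left, was 17.5 to 20.5 RPPM in BMPC and 6.6 to 13.4 elsewhere. Erythroid markers summed to 19.0 to 26.1 RPPM in GCB and BMPC and 15.0 to 17.3 in nB (2 of 5 with a promoter region), and NK cell markers to 7.0 to 12.1 in GCB and 2.6 to 5.1 elsewhere (2 of 4). The part of other cells in the results was not tested. In sorted populations, fewer cells with a region open and less signal per cell cannot be told apart.

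The central 300 bases of 9 of these regions are given because they hold the motifs described next and belong to genes whose levels are given later. They were read from the plus strand of mm9, 5′ to 3′. Capitals mark the octamer ATGCAAAT, the AP-1 motif TGANTCA and the tandem IRF motif GAAANNGAAA, on either strand. The first 5 hold an octamer, and the next 3 hold an AP-1 motif. The Fam46c region holds both, the Gm14005 region holds an octamer and an IRF tandem, and the last, 390817 bp from Kdm4c, holds an IRF tandem.
Fam46c, chr3:100247953-100248252: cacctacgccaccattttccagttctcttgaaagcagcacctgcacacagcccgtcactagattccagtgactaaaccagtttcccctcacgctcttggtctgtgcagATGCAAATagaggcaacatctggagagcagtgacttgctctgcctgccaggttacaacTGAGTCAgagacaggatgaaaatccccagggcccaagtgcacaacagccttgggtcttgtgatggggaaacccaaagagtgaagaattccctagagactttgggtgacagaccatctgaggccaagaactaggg
Gm14005, chr2:128228945-128229244: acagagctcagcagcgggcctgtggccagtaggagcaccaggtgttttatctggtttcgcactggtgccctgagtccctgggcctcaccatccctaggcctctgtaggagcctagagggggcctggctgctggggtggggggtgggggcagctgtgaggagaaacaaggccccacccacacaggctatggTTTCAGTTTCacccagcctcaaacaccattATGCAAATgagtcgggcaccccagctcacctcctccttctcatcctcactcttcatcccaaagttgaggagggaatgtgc
Sel1l, chr12:93041727-93042026: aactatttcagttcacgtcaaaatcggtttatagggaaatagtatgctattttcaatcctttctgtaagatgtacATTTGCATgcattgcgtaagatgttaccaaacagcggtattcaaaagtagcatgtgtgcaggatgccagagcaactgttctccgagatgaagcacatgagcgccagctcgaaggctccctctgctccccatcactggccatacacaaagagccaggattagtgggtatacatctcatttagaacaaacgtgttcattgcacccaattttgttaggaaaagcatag
Rftn1, chr17:50207895-50208194: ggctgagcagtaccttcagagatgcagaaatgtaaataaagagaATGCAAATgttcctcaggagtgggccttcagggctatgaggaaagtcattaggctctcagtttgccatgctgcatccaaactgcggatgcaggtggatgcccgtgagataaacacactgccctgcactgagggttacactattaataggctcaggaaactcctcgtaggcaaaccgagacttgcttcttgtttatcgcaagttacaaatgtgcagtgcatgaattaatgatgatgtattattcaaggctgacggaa
S1pr2, chr9:20792490-20792789: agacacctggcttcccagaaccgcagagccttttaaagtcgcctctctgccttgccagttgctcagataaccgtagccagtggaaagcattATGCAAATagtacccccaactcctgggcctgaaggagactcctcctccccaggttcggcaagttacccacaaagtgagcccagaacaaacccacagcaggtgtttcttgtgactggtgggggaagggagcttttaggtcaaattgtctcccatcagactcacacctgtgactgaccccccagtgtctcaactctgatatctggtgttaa
Xbp1, chr11:5409349-5409648: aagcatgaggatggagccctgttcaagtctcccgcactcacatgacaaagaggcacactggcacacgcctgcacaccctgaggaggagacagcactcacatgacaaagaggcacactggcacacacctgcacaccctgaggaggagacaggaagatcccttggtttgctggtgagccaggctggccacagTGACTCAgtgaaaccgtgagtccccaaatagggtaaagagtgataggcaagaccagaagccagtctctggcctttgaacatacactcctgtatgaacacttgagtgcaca
Il10, chr1:132890312-132890611: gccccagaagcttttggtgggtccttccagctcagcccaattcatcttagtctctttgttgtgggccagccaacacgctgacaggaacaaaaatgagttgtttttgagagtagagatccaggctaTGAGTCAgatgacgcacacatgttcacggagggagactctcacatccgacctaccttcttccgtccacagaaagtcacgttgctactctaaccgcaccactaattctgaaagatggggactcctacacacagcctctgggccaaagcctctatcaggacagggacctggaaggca
Edem3, chr1:153613267-153613566: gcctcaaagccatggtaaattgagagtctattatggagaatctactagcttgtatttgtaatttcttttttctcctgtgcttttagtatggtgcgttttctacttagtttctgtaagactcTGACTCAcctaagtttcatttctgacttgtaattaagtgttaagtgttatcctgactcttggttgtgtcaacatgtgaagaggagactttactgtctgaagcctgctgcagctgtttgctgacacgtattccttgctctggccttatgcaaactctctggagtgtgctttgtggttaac
Kdm4c, chr4:74443425-74443724: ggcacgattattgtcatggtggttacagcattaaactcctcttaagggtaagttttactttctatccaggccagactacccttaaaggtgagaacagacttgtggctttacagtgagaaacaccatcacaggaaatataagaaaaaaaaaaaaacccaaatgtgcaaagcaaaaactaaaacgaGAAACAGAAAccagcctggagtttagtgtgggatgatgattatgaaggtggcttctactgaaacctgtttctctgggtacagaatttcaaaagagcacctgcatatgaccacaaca

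The octamer, bound by OCT1 and OCT2, was the motif most over-represented among those common in the regions. It lay in the central 300 bases of 118 of the 805 regions that were on a named chromosome and at least 300 bases wide, or 14.7% (95% Wilson interval 12.4 to 17.3, over regions). Of 38980 distal autosomal regions with a window of the same length, 4.81% held it. Regions chosen by the same levels as open in GCB alone held it in 15.0% of cases, those open in BMPC alone in 4.58%, and those open alike in nB, GCB and BMPC in 3.59%. For octamers, the regions opened and kept thus resembled the regions open in GCB alone.

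The tandem IRF motif had the opposite distribution. It lay in 93 of the 805 windows, or 11.6%, against 8.41% of all distal regions, and its share was 14.9% in regions open in BMPC alone and 4.90% in those open in GCB alone. AP-1 motifs lay in 116 windows, or 14.4%, against 10.4% of all distal regions. Regions open in GCB alone held them in 13.5% and those open in BMPC alone in 11.8%. Of the E-boxes, bound by E proteins such as E2A, CACCTG lay in 37.8% of windows against 28.8% of all, and CAGCTG in 24.5% against 22.0%. The CACCTG share was 48.4% in regions open in BMPC alone and 30.0% in those open in GCB alone, so that the 849 regions lay between the groups that share each cell type with them.

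Other motifs were less common in the windows of these regions than in those of all distal regions. CTCF, an insulator protein, had its motif (CCANNAGGNGGC) in 1.49% of windows against 5.76% of all distal regions and 8.98% of regions open alike in all 3 cell types, but regions open in GCB alone (1.55%) and in BMPC alone (0.453%) held it as seldom or less. The PU.1 motif GAGGAAGT lay in 4.60% against 8.15%, with 2.38% in regions open in BMPC alone, and RUNX (TGTGGTT) in 9.44% against 11.3%. The composite of an ETS and an IRF site, GGAANNGAAA, lay in 5.59% against 6.81%, and BLIMP1 (GTGAAAGT) in 1.37% against 1.82%. Regions open in GCB alone held RUNX in 8.68% and the composite in 5.50%. Over whole regions, which were wider here than over all distal regions, the order turned for RUNX (20.9% against 16.2% of all distal regions), the composite (9.47% against 9.02%) and BLIMP1 (3.43% against 2.56%). XBP1 motifs (TGACGTGG) lay in 10 windows, or 1.24%, against 0.457%. The others were close to the share over all distal regions. These were MEF2 (CTANNNNTAG, 6.21% against 5.23%), NF-kappaB (GGGANNTTCC, 2.24% against 1.87%), NFAT (TGGAAAA, 6.34% against 6.79%) and STAT or BCL6 (TTCNNNGAA, 9.44% against 9.74%). The same held for GATA factors, with the letters AGATAA (12.5% against 13.3%), FOXO (GTAAACA, 4.97% against 4.43%), KLF (GGGTGTGG, 3.11% against 3.42%) and EBF1 (TCCCNNGGGA, 1.24% against 1.31%). All were searched on both strands. The IRF tandem and the ETS-IRF composite share the letters GAAA and can overlap. A match describes letters only, and no test was made of these shares.

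**Figure D1:**
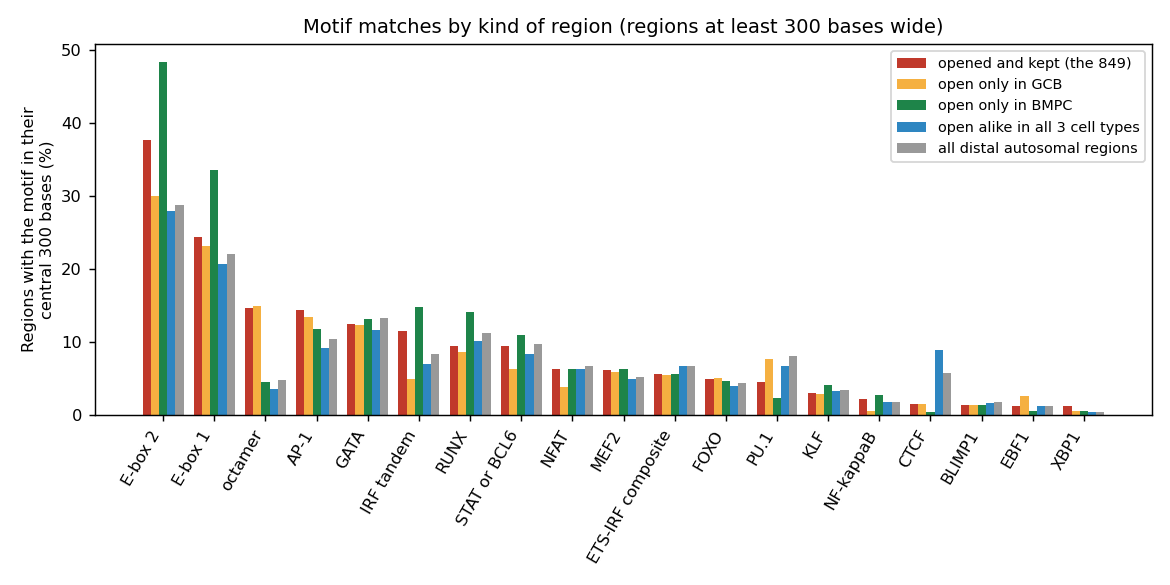
Share of regions (y axis, %) with each of 19 motifs (x axis) in the central 300 bases, for the 805 of the 849 regions with a full window, regions open in GCB alone, in BMPC alone or alike in all 3 cell types, and all distal autosomal regions. E-box 1 and 2 are the CAGCTG and CACCTG forms. For the octamer, these regions (14.7%) stand beside the regions open in GCB alone (15.0%), and for the IRF tandem (11.6%) they stand nearer to those open in BMPC alone (14.9%).

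The regions were wider than other distal regions, with a median of 688 bp against 467 bp over all distal regions, and about as wide as those open in BMPC alone (672 bp). Their GC content had a median of 47.7%, as did that of all distal regions. Windows without a CpG made up 2.01% of them, against 7.24% of all distal regions and 8.09% of those open in GCB alone. Such windows made up 5.39% of regions open in BMPC alone and 2.61% of those open alike in all 3 cell types. Unlike the motif shares, these shares count regions of every width, and a region too narrow for a full window gave a shorter one. Regions open in GCB alone had a median width of 410 bp. The part of width in these shares was not tested. The median distance to a transcription start was 17.9 kb, close to the 17.7 kb of all distal regions and above the 11.1 kb of regions open alike in all 3 cell types. Of the 849, 521 overlapped a transcript, with 487 in an intron, 112 in an exon, 11 in a 5′ UTR and 29 in a 3′ UTR, where a region can count in several. The remaining 328 lay between transcripts. The table assigns them to 628 genes, by position and not by function, and gives no gene symbol for 73 regions.

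As a group the regions were open in every GCB and BMPC library and much less open in every nB library. The median over the 849 regions was 1.12 to 1.22 RPPM in the 5 nB libraries, 9.65 to 11.2 in the 6 GCB libraries and 11.2 to 12.0 in the 5 BMPC libraries. They took 0.135% to 0.143% of all reads in nB, 1.17% to 1.32% in GCB and 1.29% to 1.38% in BMPC. In nB and in GCB these shares overlapped between the genotypes, while both KO BMPC libraries (1.29%) lay below the 3 C BMPC libraries (1.31% to 1.38%). The regions were chosen for high C means, which favors lower values in KO, so nothing is read from that gap. The level in nB rested on few reads, with medians of 5 to 7 per region and library. In 4 regions all 3 C nB libraries had 0 reads, and in 5 regions both KO nB libraries did.

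**Figure D2:**
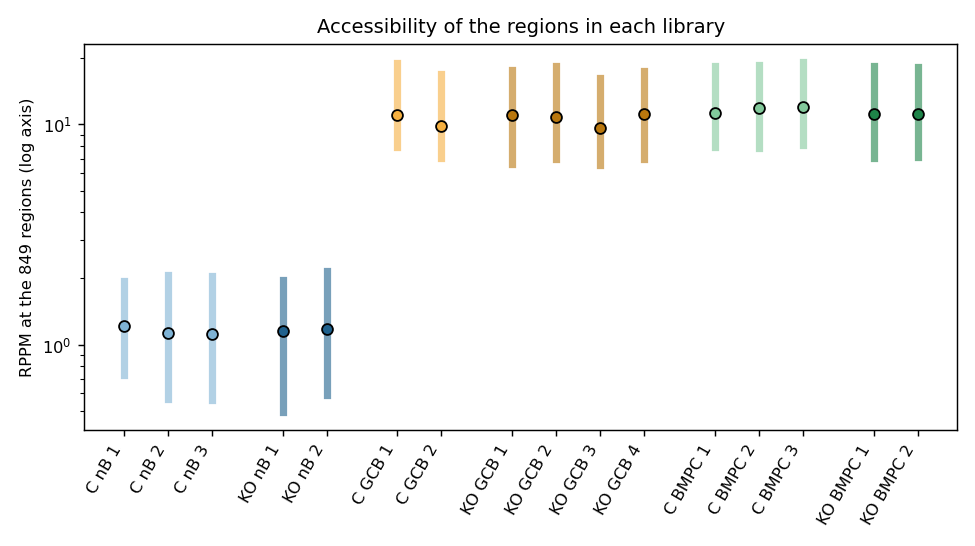
Accessibility (RPPM, log axis) of the 849 regions in each of the 16 libraries (x axis). Points are medians and bars reach from the lower to the upper quartile over regions. The 5 nB medians lie between 1.12 and 1.22 and the 11 GCB and BMPC medians between 9.65 and 12.0.

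The KO libraries, which took no part in the choice, were used to ask whether these regions are also more open in Dnmt3-deficient GCB and BMPC than in nB. Of the 849 regions, 820 were higher in KO GCB than in KO nB (limma on log2(RPPM + 1), Benjamini-Hochberg adjusted p at most 0.01 and at least 2-fold), against 15.6% of all regions called in this direction. In KO BMPC, 807 were higher than in KO nB, where the share of all regions was also 15.6%. Both calls were made in 785 regions, or 92.5%, against 7.05% of all regions. None of the 849 was called lower in either comparison. The median log2 difference over the 849 was 2.38 for KO GCB and 2.44 for KO BMPC, against 0.12 and 0.08 over all regions, on the log2(RPPM + 1) scale, which understates the change of regions near 0.

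The libraries themselves separated as well. All 4 KO GCB libraries exceeded both KO nB libraries in 837 regions, or 98.6%, where 31.2% of all regions did so. Both KO BMPC libraries exceeded both KO nB libraries in 848 regions, against 43.4% of all, and both conditions held in 836 regions, against 21.4% of all. The nB were male, and a single KO GCB library, KO GCB 4, was male too. In this library alone, without a test, 828 regions were at least 2-fold above the KO nB mean on the RPPM + 1 scale, against 21.9% of all regions. With sex as a term in the fit, 591 of the 849 had both calls, against 3.65% of all regions. KO GCB 4 alone differed in sex from the others of its KO group, so this term rests on that library, here and below. BMPC and nB of the same sex were not compared here.

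**Figure D3:**
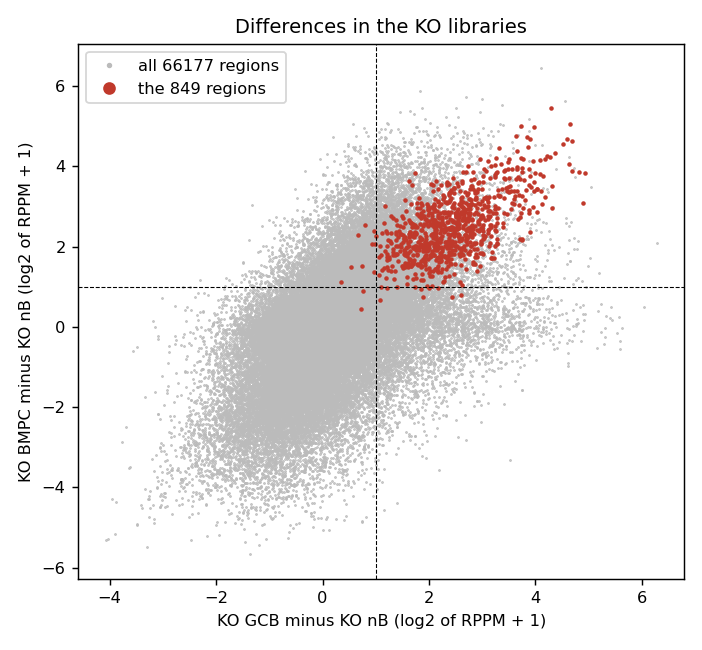
Difference between KO GCB and KO nB (x axis) and between KO BMPC and KO nB (y axis), both as log2 of RPPM + 1, for all 66177 regions (gray) and the 849 regions (red). The KO nB libraries enter both axes. Dashed lines mark 2-fold, and nearly all red points lie above both, with medians of 2.38 and 2.44.

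The 64 regions without both calls were the weaker ones. Their smaller C mean of GCB and BMPC had a median of 6.26 RPPM, against 10.1 in the 785 with both calls, and 41 of them were at least 2-fold higher in both comparisons but missed the adjusted p in at least 1. Of the 64, 35 were called in KO GCB only, 22 in KO BMPC only and 7 in neither. When the rule itself was applied to the KO means, 1045 regions met it, and 564 of these were among the 849, which is 66.4% of the C list and 54.0% of the KO list. Of the 285 that did not meet it, 162 missed a single condition. The condition most often missed was that GCB and BMPC be within 2-fold, in 153 regions.

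The strongest regions, ranked by the smaller of the C GCB and C BMPC means, were led by a region 6960 bp from Fam46c, at chr3:100247614-100248591 (mm9) between genes. Fam46c encodes a poly(A) polymerase that is highly expressed in plasma cells. Accessibility was 1.71, 2.45 and 2.05 RPPM in C nB, 91.0 and 95.1 in C GCB, and 101, 119 and 109 in C BMPC. In KO it was 2.14 and 2.36 RPPM in nB, 67.2, 90.4, 85.9 and 82.5 in GCB, and 102 and 113 in BMPC. No KO library of GCB or BMPC came near the nB libraries. The log2 difference from KO nB was 4.66 ± 0.15 (SE) for KO GCB and 5.06 ± 0.17 for KO BMPC (limma, adjusted p = 1.76e-12 and 5.32e-12). The second region, chr3:100240583-100241274, lay 14277 bp from the same gene and was already partly open in KO nB, at 9.71 and 18.7 RPPM, with 85.3 to 95.8 in KO GCB and 70.6 and 87.4 in KO BMPC.

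Among the 12 strongest regions was 1 at chr12:93041349-93042404, 2079 bp from Sel1l, which encodes a subunit of the complex that moves misfolded proteins out of the endoplasmic reticulum. Its levels were 2.30 and 2.95 RPPM in KO nB, 49.6, 57.9, 49.5 and 46.8 in KO GCB, and 91.3 and 98.9 in KO BMPC. The 3 cell types did not overlap there. The log2 difference from KO nB was 3.84 ± 0.16 for GCB and 4.73 ± 0.18 for BMPC (limma, adjusted p = 1.38e-11 and 8.68e-12). The region in an intron of Nrip1, a nuclear receptor corepressor, at chr16:76337022-76337993, was less closed in nB. It had 11.5 and 14.0 RPPM in KO nB, 55.1, 56.0, 67.5 and 72.0 in KO GCB, and 93.9 and 99.5 in KO BMPC.

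A region 390817 bp from Kdm4c, which encodes a histone demethylase, and a region in Ppfibp1, which encodes a liprin, went from near closed to among the highest. The Kdm4c region, chr4:74442581-74444568, had 1.81 and 2.56 RPPM in KO nB, 68.3, 67.5, 68.0 and 83.2 in KO GCB, and 71.3 and 76.2 in KO BMPC. Its KO GCB and KO BMPC libraries overlapped. The Ppfibp1 region, chr6:146958583-146960481, over an exon and intron, had 2.63 and 2.56 RPPM in KO nB, 58.4, 57.3, 55.7 and 82.5 in KO GCB and 54.2 and 42.0 in KO BMPC.

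The other 6 with a place on a named chromosome lay in introns of Coro2b (a coronin) and Suclg2 (a mitochondrial ligase subunit), over an exon and intron of Adamts14 (a secreted metalloproteinase), and, as a pair, between Atl2 and Hnrpll, besides the second Fam46c region. Their KO nB means were 3.47 to 22.2 RPPM and their KO GCB and KO BMPC means 47.7 to 91.0. The highest nB level was that of Coro2b, at 23.4 and 21.1 RPPM in KO nB, where the log2 difference from KO nB was 1.41 ± 0.17 for GCB and 1.82 ± 0.19 for BMPC. The last of the 12 lay on unplaced sequence of chromosome 1. All 12 were called higher in both KO GCB and KO BMPC, as were 92.5% of all members.

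**Figure D4:**
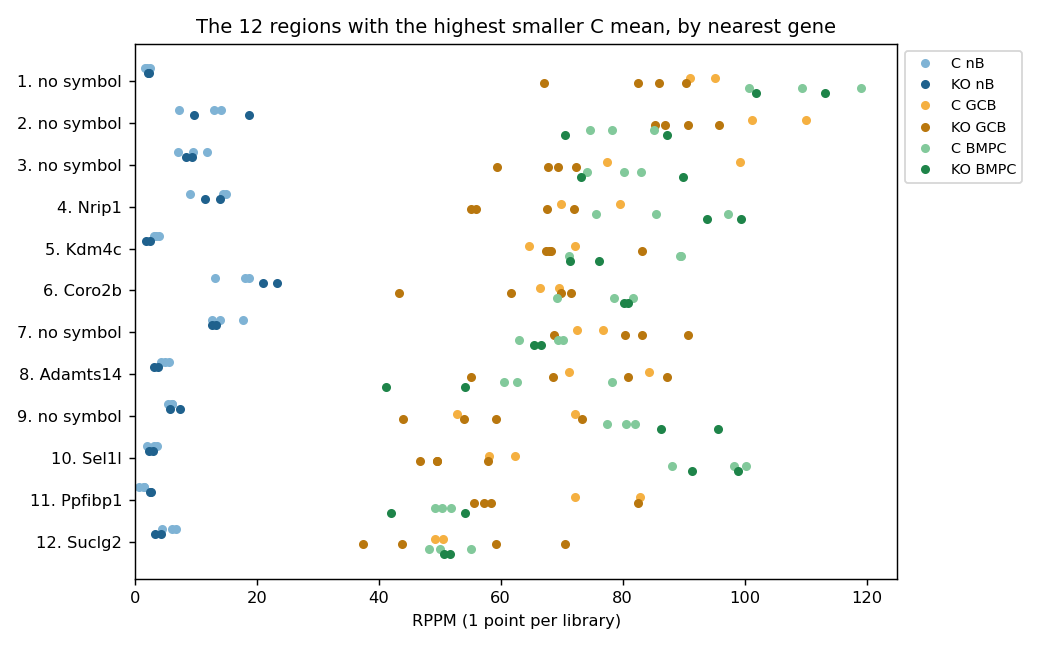
RPPM in each library (x axis, 1 point per library, colored by group) for the 12 strongest of the 849 regions, ranked by the smaller C mean of GCB and BMPC and labeled with the table's nearest gene. The nB points lie between 0.73 and 23.4 RPPM and the GCB and BMPC points between 37.4 and 119.

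Members lay close together at some loci. Of the 845 regions on named chromosomes, 253, or 29.9%, had another within 50 kb, in 101 stretches, of which 24 held at least 3. Stretches of 7 were the longest, and there were 4 of them. In Zfp362, which encodes a zinc finger protein, 7 of the 8 regions in a 10.96 kb part of the gene were members, and their summed means were 5.7 RPPM in KO nB, 80.8 in KO GCB and 93.2 in KO BMPC. In Zbtb20, a transcription factor gene known to act in plasma cell survival, 7 of 10 regions within 47.2 kb were members, with sums of 5.0, 86.8 and 77.9 RPPM. Around Fam46c, 7 of 12 regions within 71.8 kb were members, with sums of 21.5, 298 and 378 RPPM, the highest of the 4. Between Fndc3a and Cysltr2, 7 of 12 regions within 77.4 kb were members, with sums of 9.7, 103 and 149 RPPM. All members in these 4 stretches were called higher in both KO GCB and KO BMPC, where 92.5% of all members and 7.05% of all regions were.

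**Figure D5:**
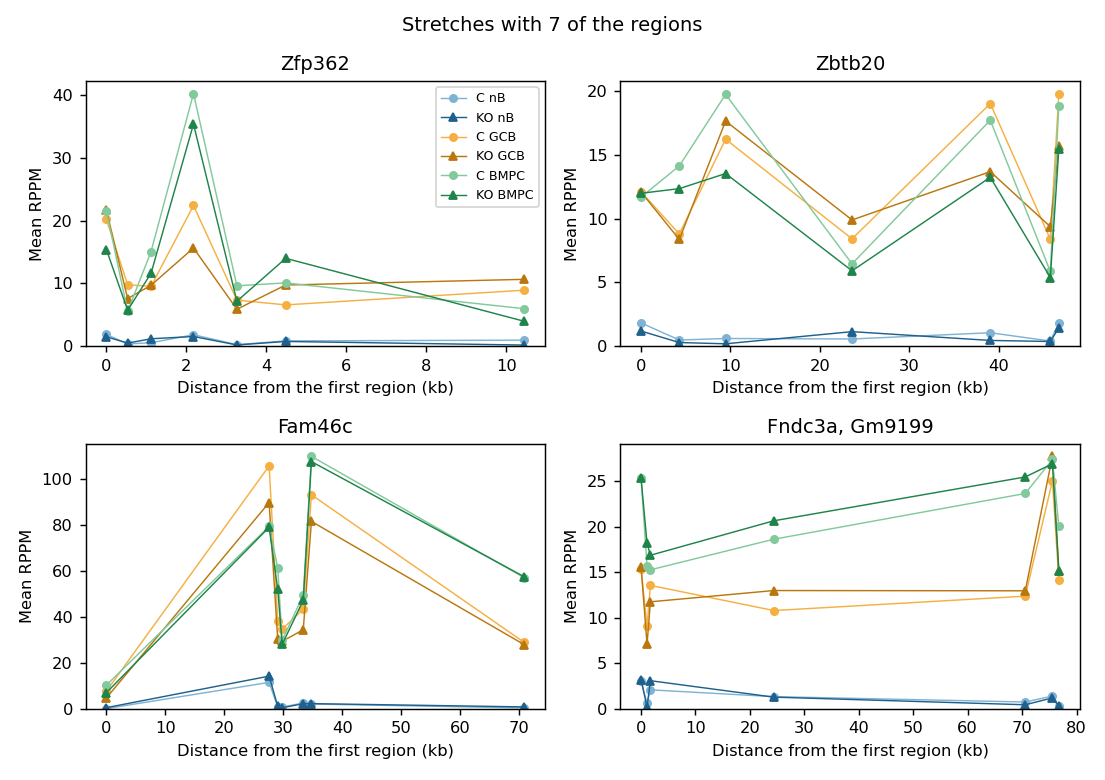
Mean RPPM of each group (y axis) at the 7 members of each of 4 stretches, by distance from the first member (x axis, kb), with lines joining a group's points. Circles are C and triangles KO. In all 4 the nB means stay at or below 14.2 RPPM, and the Fam46c stretch reaches 110 in C BMPC.

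Counted by the table's nearest gene, Zbtb20 had the most members, 11 of its 41 distal regions, spread over 279 kb of the gene. All 11 were called higher in KO GCB and 10 in KO BMPC. Its strongest, chr16:43573357-43574553 in an intron, had 5.10 and 6.10 RPPM in KO nB, 20.9, 29.3, 24.6 and 32.2 in KO GCB, and 44.6 and 47.0 in KO BMPC. The 3 cell types did not overlap at this region, and the difference between KO BMPC and KO GCB (log2 0.77) stayed under 2-fold. Zfp362 followed with 7 of 12 and Etv6, an ETS family repressor, with 6 of 34. The strongest of Etv6, chr6:134091268-134092225 in an intron, was 2.96 and 3.35 RPPM in KO nB, 47.4, 50.3, 61.8 and 64.3 in KO GCB, and 29.0 and 33.4 in KO BMPC. It was thus higher in every GCB library than in either BMPC library, the reverse of Zbtb20.

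Tox2, an HMG box factor, Fut8, which adds core fucose to glycoproteins including antibodies, Fndc3a and Gm14005 had 5 members each. Rftn1, which encodes a lipid raft protein of the B cell receptor pathway, Trp73, a member of the p53 family, and Gm9199 had 4 each. All members of these 7 genes were called higher in both comparisons, as were 92.5% of all members. The Tox2 region chr2:163028354-163029580 had 0.658 and 1.38 RPPM in KO nB, 51.8, 57.9, 49.5 and 42.6 in KO GCB and 25.8 and 30.6 in KO BMPC. The Trp73 region chr4:153497352-153498419, in an intron, had 0.658 and 0.394 RPPM in KO nB, 37.4, 34.4, 28.1 and 45.4 in KO GCB and 34.4 and 42.6 in KO BMPC, so that GCB and BMPC overlapped at Trp73 and not at Tox2. The 4 Trp73 members were 4 of the 6 distal regions the table assigns to that gene. The Gm14005 and Rftn1 regions whose sequences are given rose in the same way, by 3.04 ± 0.21 and 3.88 ± 0.20 on the log2 scale in KO GCB and by 3.93 ± 0.24 and 3.54 ± 0.23 in KO BMPC.

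Of transcription factor genes of the germinal center and plasma cell programs, 9 of 41 had a member, with 20 members among 800 distal regions, or 2.5%, against 1.68% of all distal regions. Of the 20, 11 were Zbtb20 members, and the list without that gene had 9 among 759, or 1.19%. The genes were Bach2, Foxp1, Hivep3, Irf4, Pou2af1, Tcf4, Xbp1, Zbtb20 and Zbtb38. Calls in both KO comparisons were made in 17 of the 20 members, against 92.5% of all members and 7.05% of all regions. Such calls were therefore usual for members, here and in the lists below. The shares of those lists are to be read against the same 1.68%. Xbp1 drives the secretory program of plasma cells, and its member, chr11:5409104-5409893, lay 10769 bp from the gene. It had 5.43 and 5.51 RPPM in KO nB, 27.5, 21.0, 29.8 and 28.0 in KO GCB and 27.1 and 31.5 in KO BMPC, with log2 differences of 2.08 ± 0.19 and 2.22 ± 0.22 (limma, adjusted p = 1.62e-07 and 2.62e-07). GCB and BMPC overlapped there, and neither overlapped nB.

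Irf4 encodes a factor needed for both germinal center and plasma cell fates. Its member, chr13:30822013-30822583, 18512 bp from the gene, had 4.44 and 5.90 RPPM in KO nB, 31.9, 45.8, 49.5 and 51.7 in KO GCB, and 22.7 and 18.5 in KO BMPC. It was called higher than nB in both and lower in KO BMPC than in KO GCB (log2 fell by 1.07, limma adjusted p = 0.000355). Without KO GCB 4 the latter difference was -0.99 and without KO BMPC 2 it was -0.93, and with sex as a term -0.99, all under 2-fold. The Tcf4 member, in an intron of this E protein gene, had 1.48 and 1.38 RPPM in KO nB, 17.6, 34.4, 30.3 and 35.0 in KO GCB and 23.9 and 24.8 in KO BMPC. The second Zbtb20 member that this list names lay at chr16:43661503-43662288, in an intron of Zbtb20 and overlapping Tigit in GENCODE. It had 1.81 and 4.53 RPPM in KO nB, 9.55 to 20.2 in KO GCB and 34.4 and 26.7 in KO BMPC.

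Of 26 genes of NF-kappaB, AP-1 and NFAT factors and their inhibitors, 3 had 5 members among 166 distal regions (3.01%), all called in both comparisons. They were Nfatc1 and Nfatc2, transcription factors activated by calcium signals from the B cell receptor, and Nfkbia, which encodes the inhibitor of NF-kappaB. The stronger Nfatc1 member, chr18:80814100-80814776 in an intron, had 0.987 and 2.16 RPPM in KO nB. It had 13.2 to 16.7 in KO GCB and 17.9 and 18.7 in KO BMPC, and was not called between them (log2 0.27). The weaker, chr18:80816057-80816621 in an intron, had 0.823 and 0.787 RPPM in KO nB, 9.91, 8.27, 4.82 and 6.29 in KO GCB and 19.7 and 17.2 in KO BMPC. It was called higher in KO BMPC than in KO GCB (log2 1.26, limma adjusted p = 0.00215). That call was lost without either KO BMPC library (log2 1.17 and 1.35), as were the calls of the Nfkbia member against nB in BMPC (log2 1.70 and 1.44), and without KO nB 2 the Nfkbia member lost its calls in GCB (1.49) and BMPC (1.41). With sex as a term it lost both too (1.15 and 0.89). The Nfatc2 member at chr2:168405772-168406434 lost its GCB call without KO nB 2 (1.56). At the Nfatc1 member chr18:80816057-80816621, the C BMPC libraries, at 11.2, 5.29 and 13.5 RPPM, lay below the KO BMPC libraries. The intronic Nfatc2 members, chr2:168405772-168406434 and chr2:168401325-168401883, had KO BMPC means of 15.1 and 10.7 RPPM and C BMPC means of 5.76 and 6.70.

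Of 34 surface genes of activation, costimulation and inhibition, 4 had a member each, which were 4 of 209 distal regions (1.91%). Cd69 encodes a receptor that retains activated lymphocytes in tissue, and its member, chr6:129216009-129217155, had 1.32 and 3.94 RPPM in KO nB, 14.3, 20.4, 12.3 and 30.8 in KO GCB and 22.8 and 20.9 in KO BMPC. Fas encodes the death receptor that was also used to sort GCB. Its member, over an exon and intron at chr19:34381062-34381810, had 0.987 and 0.787 RPPM in KO nB, 12.1, 12.7, 20.2 and 21.0 in KO GCB and 5.47 and 4.85 in KO BMPC. All GCB libraries exceeded both BMPC libraries there, and the log2 difference was -1.47 (limma, adjusted p = 0.000465), or -1.40 and no longer called without KO BMPC 2. Cd86, a ligand for CD28, and Cd44, an adhesion receptor, had 11.3 and 7.65 RPPM in KO GCB, 8.52 and 5.87 in KO BMPC and 1.25 and 1.38 in KO nB, as means. All 4 were called in both comparisons, although Cd44 lost both calls without KO nB 2 (log2 1.46 and 1.21) and that for BMPC without either KO BMPC library (1.56 and 1.59).

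Of 35 genes of positioning, chemokines and adhesion, 4 had a member each among 299 distal regions (1.34%). S1pr2 encodes the receptor that confines B cells to the germinal center. Its member, chr9:20792164-20793116, 10927 bp from the gene, had 1.65 and 2.36 RPPM in KO nB, 18.7, 22.9, 33.3 and 30.8 in KO GCB and 43.6 and 49.6 in KO BMPC. It was more open in every BMPC library than in any GCB library, though by under 2-fold (log2 0.83). The members of Sema7a, a semaphorin, Itgb3, an integrin chain, and Cxcr5, the receptor that guides B cells into follicles, had KO GCB means of 28.5, 8.15 and 6.67 RPPM and KO BMPC means of 20.7, 5.62 and 15.3. For Itgb3 the BMPC call against nB was lost without either KO nB library (log2 1.36 and 1.62), either KO BMPC library (1.45 and 1.54), KO GCB 3 or KO GCB 4 (1.49 for both), and its GCB call without KO nB 1 (1.73). For Cxcr5 the GCB call was lost without either KO nB library (1.80 and 1.92), and with sex as a term both its GCB call (0.70) and its BMPC call (1.56) were lost, as was the BMPC call of Itgb3 (1.82).

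Of 39 cytokine, cytokine receptor and signaling genes, 3 had 5 members among 208 distal regions (2.40%), all called in both comparisons. Il10 encodes an inhibitory cytokine that some plasma cells secrete, and had 3 of the 5. The member at chr1:132889945-132890979 had 1.81 and 1.77 RPPM in KO nB, 20.9, 21.6, 17.5 and 16.1 in KO GCB and 43.5 and 35.3 in KO BMPC. It was called higher in KO BMPC than in KO GCB (log2 1.01, limma adjusted p = 0.000735), but by 0.98 without KO GCB 3, 0.94 without KO GCB 4, 0.87 without KO BMPC 1 and 0.94 with sex as a term, all under 2-fold. The member at chr1:132899657-132900505 had 1.97 and 1.57, then 31.9, 21.0, 22.8 and 16.1, then 39.2 and 40.3 RPPM in the same order. The third, on the other side of the gene at chr1:132934632-132935567, had means of 3.25, 17.7 and 21.8 RPPM. Tgfbr1, a TGF-beta receptor chain, rose from 0.658 and 0.787 RPPM in KO nB to 20.9, 23.5, 30.7 and 23.8 in KO GCB and 22.7 and 21.8 in KO BMPC. Il2rb, a chain of the IL-2 and IL-15 receptors, had means of 0.74, 14.7 and 7.31 RPPM in KO nB, KO GCB and KO BMPC.

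Of 38 genes of the secretory pathway and unfolded protein response, 4 had a member each among 148 distal regions (2.70%). They were Xbp1, and Edem3, Derl1 and Derl3, which act in the disposal of misfolded proteins from the endoplasmic reticulum. Edem3, in an intron at chr1:153613028-153613805, had 1.65 and 0.984 RPPM in KO nB, 16.5, 14.6, 12.3 and 21.7 in KO GCB and 21.6 and 18.5 in KO BMPC. Derl1, over an exon and intron at chr15:57715089-57715647, had 0.494 and 0.590 RPPM in KO nB, 38.5, 28.6, 15.3 and 25.9 in KO GCB and 13.7 and 10.3 in KO BMPC, and was called lower in KO BMPC than in KO GCB (log2 fell by 1.06, limma adjusted p = 0.00636). That call was lost without any of KO GCB 1, 2 or 4 or either KO BMPC library, with log2 differences of -0.86 to -1.25, and with sex as a term (-1.05). Derl3 had means of 1.69, 5.76 and 10.7 RPPM in the 3 cell types, and its GCB call was lost without KO nB 2 (log2 0.79), KO GCB 2 (1.32), KO GCB 4 (1.28) or with sex as a term (1.82), and its BMPC call without KO nB 2 (1.62).

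Of 15 plasma cell surface and survival receptors, Il6ra, the receptor chain for interleukin 6, was alone in having a member, 1 of 83 distal regions (1.20%). This region, over an exon, an intron and the 3′ UTR at chr3:89674576-89675357, had 2.80 and 1.57 RPPM in KO nB, 15.4, 19.1, 14.0 and 21.7 in KO GCB and 32.1 and 37.9 in KO BMPC. Of 30 survival and cell cycle genes, Pmaip1, which encodes the death-promoting protein NOXA, had a member in its 3′ UTR, 1 of 169 distal regions (0.592%), with means of 0.36, 4.76 and 5.77 RPPM. Class switching and hypermutation genes (21 distal regions) and DNA methylation and demethylation genes (49) had no member. Of the marker lists, those for nB, B lineage, myeloid, erythroid and NK cells had no member, while those for GCB and BMPC had 2 each, at the genes already named. The T cell list had a member at Cd4, with means of 0.92 RPPM in KO nB, 9.84 in KO GCB and 11.7 in KO BMPC.

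Between KO GCB and KO BMPC, 83 of the 849 regions were called, or 9.78%, against 28.3% of all regions. Of these, 48 were higher in KO BMPC, where 10.5% of all regions were, and 35 were lower, where 17.8% were. The rule had required the C means of these cell types to be within 2-fold, so a low share was built in as far as C and KO levels follow each other. Without KO BMPC 1 the count was 27, against 18.7% of all regions, and without KO BMPC 2 it was 15, against 17.02% of all. The largest difference among the named regions was that of Kifc2 (log2 1.83), over an exon, an intron and the 3′ UTR at chr15:76496964-76498011. It had 1.81 and 2.36 RPPM in KO nB, 4.41, 6.36, 6.14 and 6.99 in KO GCB, and 22.7 and 24.5 in KO BMPC. The C libraries had 11.9 and 15.9 RPPM in GCB and 12.5, 12.2 and 17.3 in BMPC there. Kifc2 was named for a low KO to C ratio in GCB, which favors this difference. No p-value is therefore given for it, and nothing is read from it.

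KO and C levels are given side by side without a test, since the C libraries chose the regions. The median over the 849 regions was 1.17 RPPM in KO nB and 1.19 in C nB, 10.6 and 10.5 in GCB, and 11.2 and 11.6 in BMPC. On the RPPM + 1 scale 3 regions were at least 2-fold lower in KO GCB than in C GCB and none higher, where the shares of all regions were 0.215% and 1.93%. In BMPC 19 were at least 2-fold lower and 6 higher in KO, where the shares of all regions were 0.348% and 2.16%. Members had to be high in C, so that lower values in KO are favored by the choice, and nothing is read from these counts.

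The 4 lowest KO to C ratios in BMPC lay on chromosome 5, within 643 kb of each other. After these values were seen, all members in that stretch, chr5:11040407-11683061, were grouped. They were 7 of the 17 regions the table holds there, and all 7 were among the 19 that were at least 2-fold lower in KO BMPC. Their summed levels were 43.7, 72.1 and 75.1 RPPM in C BMPC and 18.9 and 19.4 in KO BMPC, while they were 49.7 and 52.5 in C GCB and 70.5, 46.5, 45.6 and 80.4 in KO GCB. In nB the sums were 2.14 to 6.41 RPPM. The stretch was picked for low KO values in BMPC, so nothing is read from the gap between KO and C there, while KO GCB and C GCB overlapped. Of the 40-base stretches in these regions, 68.2% to 100% recurred exactly in another distal region of the table, so reads could be placed at several copies and the value of each region is uncertain. Gene annotation there names predicted genes such as Gm8922, Gm8879, Gm8890 and Gm5861. In all, 12 of the 849 regions shared at least 50% of their 40-base stretches with another region.

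The highest KO to C ratios in BMPC, besides the Nfatc2 member, were at Snx30, Xylt1 and Igsf21. The Igsf21 region, chr4:139559178-139560769, 21992 bp from this gene of an immunoglobulin family protein, had 25.2, 11.7 and 21.2 RPPM in C BMPC and 42.2 and 47.2 in KO BMPC. The C GCB values of 24.2 and 33.3 RPPM and the KO GCB values of 17.8 to 25.3 overlapped. The Snx30 region had 5.61 to 7.12 RPPM in C BMPC and 17.6 and 19.97 in KO BMPC, and the Xylt1 region 4.74 to 7.16 and then 16.9 and 14.2. In GCB the lowest ratios were at Kifc2, Arl5a, Ccdc171 and Pan3, with C means of 13.4 to 18.3 RPPM and KO means of 5.97 to 8.22. The highest were at Jdp2, Parp8, Rab37 and a region with no symbol 95197 bp from Rab11fip4, with C means of 5.35 to 8.03 RPPM and KO means of 10.98 to 15.7.

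The limits of the rule fell within a continuous range of levels. The members just inside the 5 RPPM limit lay by Egln3, Osbpl5 and Nvl, with a smaller C mean of 5.003 to 5.010 RPPM, and the regions just outside it lay by Nav3, Etv6 and Hlcs, at 4.995. The members just inside the 4-fold limit, by Dgki, Myo1d and Slpi, had 4.001 to 4.030 times the C nB mean, and those just outside, by Prkacb, Igf2r and Tacr2, had 3.983 to 3.993 times. Just within 2-fold between GCB and BMPC were members by Ruvbl2, Il17d and Myo1d, at 1.993 to 1.998, and just beyond it were regions by Rabepk, Pced1b and 6530402F18Rik, at 2.001 to 2.003.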

How the data were processed

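ATAC-seq libraries of 16 samples were analysed; the labels name 17, and 1 KO BMPC library was removed by the authors. Per the study's methods, the authors mapped reads to mm9 with Bowtie, called peaks with MACS2 and counted reads in the union of peaks. The submitters' processing notes name Bowtie 1.1.1, Picard 1.127 and MACS2 2.1.0.20140616, and give Picard no role; the study's methods give other Bowtie and MACS2 versions, and which were used is unclear. The deposited values are RPPM, a reads-per-million (RPM) unit over reads in regions. The deposited fold changes, p-values and FDRs from edgeR 3.12.1 were not used. Whole reads were recovered from 100% of values within 0.01.

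The 8 KO libraries were fitted over all 66177 regions with limma 3.58.1 (R 4.3.3, trend) on log2(RPPM + 1), with Benjamini-Hochberg adjustment. Regions were called at an adjusted p up to 0.01 with a log2 difference of 1 or more. Alternatives used edgeR 4.0.16 and DESeq2 1.42.0 on the recovered reads. The script was tested on simulated data. Sequence and distances came from mm9 with GENCODE vM1, and tables and plots were made with Python 3.11.15, pandas 2.3.3, numpy 2.4.6 and matplotlib 3.10.9. Libraries came from separate animals or pools, as far as the labels tell, and p-values measure the spread between them.

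The members, the gene lists and the motifs were chosen with earlier results of these data known. Named regions were the 12 strongest members, the strongest member of each gene with the most members, up to 5 members per gene list, the 4 highest and lowest KO to C ratios in GCB and in BMPC, the neighbours of each limit, and the stretches with the most members. Ties at the limit for genes were all kept, giving 10 genes with at least 4 members, and 4 stretches with 7. Some items of the design and of the marker check are not reported here.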

Additional observations from a re-analysis of the deposited data

Results flagged for a closer look

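Of 71 sets of 4 KO GCB values examined, 3 had a library that stood apart by Dixon's criterion at the 95% level, which chance does in about 1 in 20. In each it was KO GCB 4, the male library, that was highest, at 83.2 RPPM for the Kdm4c region, 82.5 for the Ppfibp1 region and 9.09 for the Pan3 region. The other 3 libraries there had 67.5 to 68.3, 55.7 to 58.4 and 6.58 to 7.001 RPPM. In 3 named regions every sample of the KO differed between BMPC and GCB in one direction and every C sample in the opposite direction. The KO log2 difference, BMPC minus GCB, was -0.91 for the Gm8890 region of chromosome 5, 0.24 for the Arl5a region and -0.69 for the Jdp2 region. All 3 were named for their KO to C ratios in GCB or BMPC, which favors such opposite directions. The share of all regions with this pattern was not counted, and nothing is read from it. Whether C and KO differed there was not tested.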

How the results depend on the processing

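The number of regions higher in both KO GCB and KO BMPC than in KO nB, 785, was 526 with a pseudocount of 5 RPPM, 591 with sex as a term and 837 with the edgeR likelihood ratio test. The edgeR quasi-likelihood test on recovered reads gave 832 of the 849, and 7453 of all regions against 4665 with limma. Leaving out 1 library gave 649 to 804, with 717 to 826 for GCB and 704 to 820 for BMPC. The 83 regions called between KO GCB and KO BMPC were 30 with a pseudocount of 5 RPPM, 139 with edgeR's quasi-likelihood and likelihood ratio tests, 135 after filterByExpr and 15 to 98 with 1 library left out, the lowest without KO BMPC 2 and 27 without KO BMPC 1. The rule itself chose 399 regions at a limit of 10 RPPM, and 811 to 987 with 1 C library left out. Over whole regions rather than windows, motif shares were 27.8% for AP-1 (16.3% of all distal regions), 20.6% for the octamer (6.34%), 17.9% for the IRF tandem (11.7%) and 58.5% for CACCTG (38.7%). Using regions of every width, an alternative added after the data were seen, gave 14.8% for the octamer. Of the named regions' differences, none changed direction. Of the refitted differences against nB, 41 lost their call and 1429 were unchanged for GCB. For BMPC against nB, 40 lost it, 5 gained it and 1425 were unchanged. Between BMPC and GCB, where regions with a call were refitted, 61 lost it and 212 were unchanged, so those calls were the least stable. Where an arm was left with 1 sample, it was assumed to vary like the other groups. Few reads per region in nB and GCB limit differences there. No paired analysis was possible because the KO groups compared share no animal or pool numbers in the labels.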
